A study of Homo sapiens with 60 samples.

Results

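The genes described here are 41 genes of DNA replication and S phase, chosen by name from a list of the replication machinery, with earlier results of these data known. All 41 were found among the 60675 genes of the deposited table, and all 41 were among the 16167 genes with enough counts to be tested. They cover origin licensing (4 genes), the MCM2-7 helicase (6), helicase activation (6), the sliding clamp and its loader (5), primase and the replicative polymerases (7), lagging strand and single-strand binding proteins (3), nucleotide supply (4), and S-phase regulation with chromatin (6).

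RNA came from HepG2, an established human hepatocellular carcinoma line, harvested after 24 h of treatment. The treatments were water extracts at 20, 100 and 500 µg/mL. Those of Astragali Radix, Cinnamomi Cortex, Cnidii Rhizoma and Rehmanniae Radix Preparata were of 1 herb each, and those of Palmul-tang, Sagunja-tang and Samul-tang were formulas. Controls received vehicle, dimethyl sulfoxide, which the sample labels give as 0.1% and the design text as 2%. That text also states that extracts with stronger toxicity were given at lower doses, whereas the labels give the same 3 doses for each extract here. Vehicle and every dose of 6 extracts had 3 libraries, which makes 57 libraries in 19 groups, and for Palmul-tang there was a single library at each dose. The labels do not say whether replicates were separate cultures, so p-values measure no more than the spread among these libraries, which may be technical. Every sample title, vehicle included, carries the label BatchB, which is not explained. Sample codes start with 5 for Cnidii Rhizoma and Rehmanniae Radix Preparata and with 6 for Cinnamomi Cortex and Astragali Radix. They start with 7 for Sagunja-tang and Samul-tang, and vehicle and Palmul-tang each carry a code of their own. A difference from vehicle therefore cannot be told apart from a difference between code groups, whereas the doses of an extract share a code group.

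Replication origins are licensed in G1 when ORC, CDC6 and CDT1 load the MCM2-7 helicase onto DNA. At the start of S phase, CDC45 and the GINS complex join MCM2-7 to form the active helicase, and primase, the polymerases and the PCNA clamp copy both strands while ribonucleotide reductase and thymidylate enzymes supply deoxynucleotides. Many of these genes are transcribed under E2F factors, so their messenger RNA is widely used as a readout of proliferation in cultured tumour cells such as HepG2.

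Promoters are shown because E2F motifs are the element these genes are best known to share. A part of E2F factors in the responses below was not tested. RefSeq promoters of build GRCh38.p14 (250 bases before to 50 bases after the start) were found for 36 of the 41 genes, and those for MCM4, MCM5, GINS4, POLD3 and RPA2 were not. The letters searched as E2F-like were TTTCCCGC, TTTCGCGC, TTTGCCGC and TTTGGCGC on both strands. TTTGGCGC on one strand and TTTCGCGC on the other overlap where both ends of a site match. At least 1 such match lay in 20 of the 36 promoters (55.6%), in 5.21% of the 11096 promoters of tested genes and in 3.33% of all 27305 promoters of the same length. The stretches below hold matches in 6 members, in capitals, with 20 flanking bases where the window before the start allows it. Of the POLE and E2F1 stretches, 23 and 19 bases lie in exons annotated by GENCODE.
MCM3 (chr6:52284889-52284936, minus strand): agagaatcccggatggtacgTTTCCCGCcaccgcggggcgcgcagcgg
MCM6 (chr2:135876502-135876615, minus strand): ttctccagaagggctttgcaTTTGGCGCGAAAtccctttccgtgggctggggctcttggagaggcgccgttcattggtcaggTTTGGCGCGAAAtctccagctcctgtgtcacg
PCNA (chr20:5126654-5126701, minus strand): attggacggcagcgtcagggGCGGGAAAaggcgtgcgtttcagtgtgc
POLA1 (chrX:24693761-24693808, plus strand): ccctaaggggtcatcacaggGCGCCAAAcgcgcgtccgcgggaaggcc
POLE (chr12:132687343-132687380, minus strand): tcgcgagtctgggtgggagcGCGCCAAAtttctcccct
E2F1 (chr20:33686386-33686438, minus strand): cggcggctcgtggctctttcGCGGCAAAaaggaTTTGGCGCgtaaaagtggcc

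The MCM6 promoter held a pair of these sites, each matched on both strands, and E2F1, which encodes an E2F factor itself, held 2 different matches within 53 bases. The CCAAT box (CCAAT, both strands) lay in 58.3% of the members' promoters and in 36.6% of those of tested genes. The CHR-like letters TTTGAA and TTCGAA, which resemble the cell cycle homology region of mitotic genes, lay in 5.56% of the members' promoters and in 11.4% of those of tested genes. In a list of 18 mitosis genes, 16 of which had a promoter, the shares were 75.0% for CHR-like letters, 75.0% for CCAAT and 6.25% for E2F-like letters. In 29 promoters of replisome genes outside the 41, CCAAT lay in 55.2%, close to the members' share, and E2F-like letters in 13.8%. E2F-like letters lay in 33.3% of 9 promoters of chromatin replication genes and in 29.4% of 17 promoters of genes of entry into S phase. A match is a description of the sequence and not a binding site.

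Total counts per library ran from 16.5 M to 34.4 M with a median of 25.5 M, so counting error was small for most members, the least abundant of which, POLE2, averaged 16.4 CPM (counts scaled to a fixed library total) in vehicle. Levels are given as CPM on TMM-scaled library sizes, and changes as log2 differences with their standard error (SE). The hepatocyte identity of the line was visible in ALB, the albumin gene, at 10590 to 11460 CPM in vehicle. Of 12 markers of leukocytes, endothelium and stroma, PTPRC, CD3E, COL3A1, LUM and DCN were at 0 in vehicle and in Cinnamomi Cortex at 500 µg/mL. The summed level of the 12 was 1165 to 1310 CPM in vehicle and 2909 to 3329 CPM in Cinnamomi Cortex at 500 µg/mL, nearly all of it LYZ, the lysozyme gene. Of the 5 that had enough counts, LYZ and PDGFRB rose and CD14 fell, and their part in the results was not tested. In bulk samples, fewer cells in S phase and less RNA of these genes per cell cannot be told apart.

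With Cinnamomi Cortex at 500 µg/mL the whole module was lower. All 41 genes fell against vehicle by edgeR's quasi-likelihood test (adjusted p under 0.05), while 62.7% of the 16167 tested genes were called in either direction and 31.6% were called lower. The median change of the 41 genes was -1.21 and their range -1.91 to -0.48, beside a median of -0.02 over all tested genes. The fall was at least 2-fold for 32 of the 41, against 8.86% of tested genes called and at least 2-fold lower. Each of the 41 genes was lower in all 3 treated libraries than in any vehicle library, which held for 34% of tested genes. Summed over the 41 genes, the level was 3276, 3287 and 3132 CPM in vehicle and 1578, 1495 and 1513 CPM with the extract. The median of the log2 ratios to the vehicle mean was 0.01, 0.02 and -0.04 in the vehicle libraries and -1.15, -1.26 and -1.21 in the treated ones. These 3 treated libraries also stood apart in composition. Mitochondrial genes took 21.9%, 22.3% and 19.4% of their counts, against 14.6%, 14.4% and 16.7% in vehicle, and their TMM factors, 0.838, 0.833 and 0.862, were the lowest of all libraries, the next being 0.915. With library sizes taken without mitochondrial genes, all 41 genes were again called lower.

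**Figure D1:**
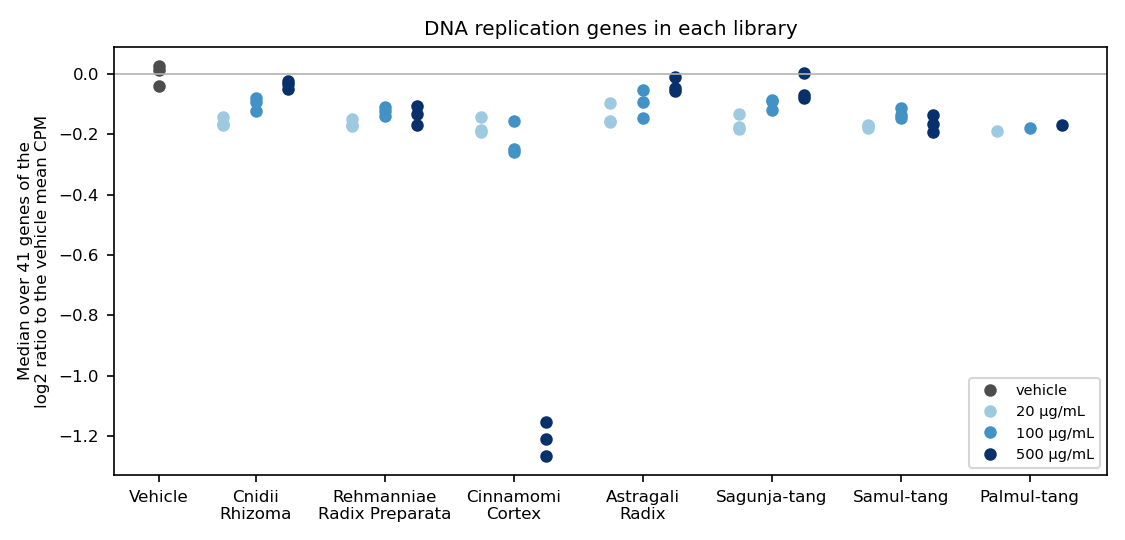
Each point is 1 library, placed by extract and dose (colour) on the horizontal axis and by the median over the 41 genes of the log2 ratio to the vehicle mean on the vertical axis. The 3 libraries of Cinnamomi Cortex at 500 µg/mL lie at -1.15 to -1.26, and all other treated libraries lie between -0.26 and 0.004.

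In origin licensing, the 4 genes changed by a median of -1.25. CDC6, the ATPase that helps ORC load the helicase, stood at 111, 110.0 and 112 CPM in vehicle and at 54.0, 49.1 and 48.1 CPM with Cinnamomi Cortex at 500 µg/mL. The groups did not overlap and CDC6 fell (log2 change -1.14, SE 0.05, adjusted p = 7.88e-26). ORC1, the ATPase subunit of the origin recognition complex, had 30.0, 30.7 and 30.7 CPM in vehicle against 12.0, 11.0 and 9.91 CPM, which left 36% of the vehicle level (log2 change -1.47, SE 0.07, adjusted p = 2.61e-23). ORC6, the smallest subunit of that complex, was left at 39.2%. CDT1, the MCM loading factor that geminin holds in check, changed least of this group. Its levels were 59.5, 65.6 and 58.7 CPM in vehicle and 44.5, 43.6 and 39.3 CPM with the extract, a change of -0.53 (SE 0.10, adjusted p = 4.56e-06).

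The 6 subunits of the MCM2-7 ring moved within a narrow range, from -1.37 for MCM3 to -1.04 for MCM7, with a median of -1.25. MCM4 was the most abundant in CPM, with 244, 248 and 241 CPM in vehicle against 101, 91.0 and 99.4 CPM (log2 change -1.33, SE 0.05, adjusted p = 3.1e-27). MCM3 stood at 218, 223 and 207 CPM against 85.8, 83.2 and 82.5 CPM, a level 38.8% of vehicle (adjusted p = 1.28e-29). MCM7 stood at 211, 230 and 207 CPM against 106, 105 and 105 CPM, or 48.7% of vehicle (adjusted p = 7.54e-22). MCM2, MCM5 and MCM6 were left at 42.7%, 41.6% and 45.4%. The subunits work in equal number in the ring, but their messages were not equal per kilobase of annotated exon, where the vehicle mean ran from 12.8 CPM for MCM6 to 59.2 CPM for MCM3.

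Among the 6 genes of helicase activation, whose median change was -1.20, MCM10 fell most. MCM10 encodes a scaffold that starts unwinding once CDC45 and GINS are in place. Its levels were 41.8, 41.6 and 44.2 CPM in vehicle and 13.3, 11.7 and 12.8 CPM with the extract (log2 change -1.76, SE 0.08, adjusted p = 1.31e-23). That left 29.6% of the vehicle level. The 4 GINS subunits, which bind as 1 complex, changed by -1.14 (GINS1), -1.25 (GINS2), -0.95 (GINS3) and -1.08 (GINS4). GINS1 had the highest CPM of the group, 61.7, 59.6 and 58.2 in vehicle against 26.9, 28.0 and 26.4. GINS3, the least changed, had 26.5, 25.2 and 26.0 CPM against 14.0, 12.8 and 13.5 CPM (adjusted p = 4.3e-17). CDC45, the partner of GINS in the active helicase, was left at 42% of vehicle.

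The clamp gene PCNA had the highest level of all 41 genes per kilobase, with a vehicle mean of 216 CPM per kilobase, while the next, RRM2, had 60.8. In the single libraries PCNA stood at 346, 307 and 298 CPM in vehicle and at 150, 144 and 146 CPM with Cinnamomi Cortex at 500 µg/mL. Its log2 change was -1.11 (SE 0.06, adjusted p = 6.72e-22). The loader subunits, which open the clamp and place it on DNA, differed among themselves. RFC4 had 31.4, 31.2 and 30.3 CPM against 11.0, 9.74 and 11.1 CPM, and a change of -1.54 (SE 0.07, adjusted p = 1.74e-25). RFC2 had 26.3, 27.7 and 24.5 CPM against 17.1, 15.2 and 17.7 CPM, and a change of -0.65 (SE 0.08, adjusted p = 2.83e-10). RFC3 and RFC5 lay between them at -1.39 and -1.21.

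Primase and the polymerases had the largest median change of the 8 groups, -1.49 over 7 genes. POLD3, an accessory subunit of DNA polymerase delta (chromosome 11, 74493851 to 74669117 on GRCh38), changed more than any other of the 41 genes. Its levels were 23.5, 23.7 and 21.8 CPM in vehicle and 6.06, 6.30 and 5.96 CPM with the extract. That left 26.6% of the vehicle level, a log2 change of -1.91 (SE 0.08, adjusted p = 3.26e-25). POLE, the catalytic subunit of leading strand polymerase epsilon (chromosome 12, 132623753 to 132687365), stood at 97.1, 101 and 98.6 CPM against 34.3, 31.7 and 33.2 CPM. The change of POLE was -1.58 (SE 0.05) and its adjusted p, 1.88e-30, was the lowest of the 41. Its partner POLE2 changed by -1.70, and POLA1 and POLA2 of the polymerase that extends primers by -1.49 and -1.29. PRIM1, the primase that makes those primers, changed by -1.23. POLD1, the catalytic subunit of polymerase delta, changed least, with 31.1, 36.5 and 30.8 CPM in vehicle against 14.3, 14.3 and 14.8 CPM (log2 change -1.18, SE 0.10, adjusted p = 5.45e-15). POLA2, POLD1, POLD3 and PRIM1 share annotated exon bases with another gene on the same strand, 2012 of them for POLA2, so part of their estimated counts is uncertain. FEN1 and CHAF1B share 49 and 89 such bases.

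The 3 genes of lagging strand synthesis and single-strand binding had a median of -0.95. FEN1, the nuclease that trims Okazaki fragments, stood at 74.1, 74.4 and 68.9 CPM against 39.1, 35.3 and 37.7 CPM (log2 change -0.95, SE 0.05, adjusted p = 6.26e-23). LIG1, the ligase that seals them, stood at 44.4, 46.3 and 43.1 CPM against 22.9, 20.8 and 19.6 CPM (log2 change -1.08, SE 0.07, adjusted p = 4.95e-18). RPA2, a subunit of the protein that coats single-stranded DNA, stood at 36.4, 35.4 and 29.04 CPM against 21.7, 18.9 and 23.2 CPM. The change of RPA2, -0.66, was among the smaller ones (SE 0.08, adjusted p = 2.52e-10).

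Nucleotide supply had the smallest median of the 8 groups, -0.75 over 4 genes. The subunits of ribonucleotide reductase, the enzyme that makes deoxynucleotides, moved by different amounts. RRM1, the large subunit, stood at 119, 115 and 110.1 CPM in vehicle and 55.6, 51.4 and 54.0 CPM with the extract (log2 change -1.09, SE 0.05, adjusted p = 3.21e-25). RRM2, the small subunit that is made in S phase, stood at 328, 329 and 314 CPM against 221, 219 and 209 CPM (log2 change -0.58, SE 0.04, adjusted p = 2.83e-18). RRM1 was thus left at 46.8% and RRM2 at 66.9% of vehicle, although RRM2 shares 1077 exon bases with a neighbour on its strand. TK1, thymidine kinase of the salvage route, was left at 58% and TYMS, thymidylate synthase, at 61.1%. TYMS overlaps 1150 exon bases of genes on the opposite strand, and strand use in the authors' counting is not given in the sources used here, so its value is uncertain.

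S-phase regulation and chromatin held both one of the larger and the smallest change. CLSPN, the checkpoint mediator claspin, stood at 25.5, 27.4 and 27.8 CPM in vehicle and 8.61, 9.97 and 8.34 CPM with the extract (log2 change -1.58, SE 0.10, adjusted p = 3.81e-19). UHRF1, which brings DNA methylation to newly copied strands, stood at 95.1, 102 and 95.8 CPM against 36.6, 34.0 and 31.5 CPM, a level 34.8% of vehicle (adjusted p = 3.36e-28). E2F1, the transcription factor, stood at 50.8, 62.6 and 56.0 CPM against 41.4, 38.8 and 41.7 CPM. Its change of -0.48 was the smallest of the 41 genes (SE 0.09, adjusted p = 4.55e-06). CHAF1A and CHAF1B, which deposit histones behind the fork, changed by -1.13 and -1.04, and WDHD1, which ties polymerase alpha to the helicase, by -1.44.

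**Figure D2:**
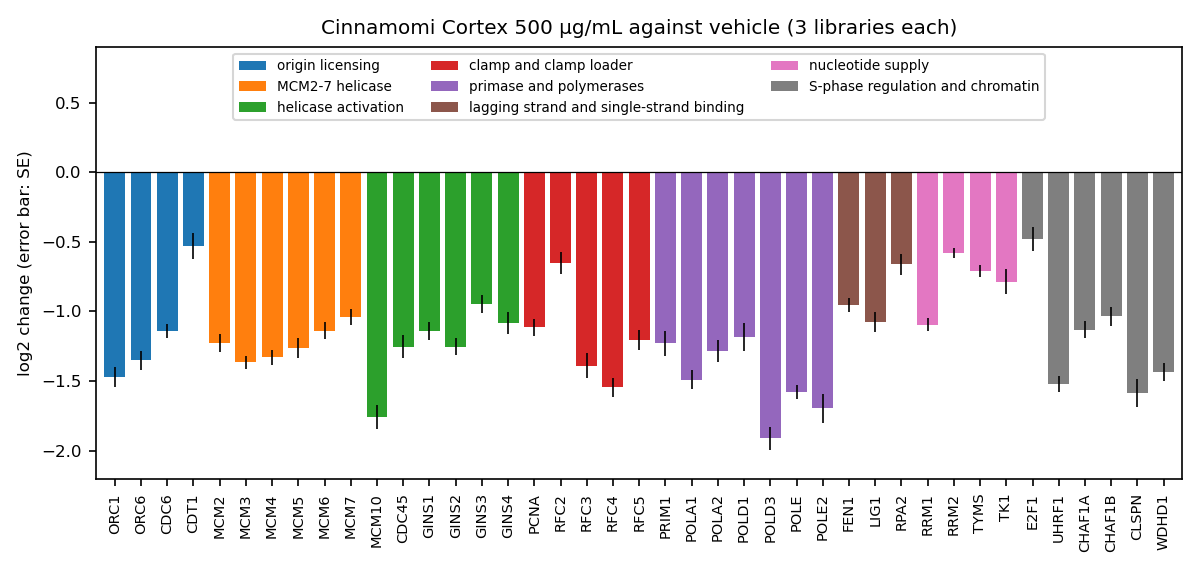
Bars show the log2 change of each of the 41 genes for Cinnamomi Cortex at 500 µg/mL against vehicle (3 libraries each), coloured by role, with error bars of 1 SE. All bars are below 0, from -1.91 for POLD3 to -0.48 for E2F1, and the primase and polymerase group has the lowest median, -1.49.

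Across the 41 genes, Spearman's rho between the change and the vehicle level per kilobase was 0.46. That between the change and the span of the gene on the genome was -0.55. Members with a longer span and a lower level per kilobase thus changed more. The same values over the 16063 tested genes with annotated positions were 0.10 and -0.06. Exon length, by which the level was divided, gave -0.38 for the members and -0.07 over those genes, so level and length were not separated. These are descriptions across genes that share the same libraries. The median change was -1.19 for 20 genes whose promoter had E2F-like letters (range -1.70 to -0.48) and -1.20 for 16 without a match (range -1.76 to -0.58). Only exact letters close to the start were searched, so a part of E2F factors was not tested by this split.

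The lower doses of Cinnamomi Cortex differed little from each other. At 20 µg/mL, 21 of the 41 genes were lower than vehicle and none higher (7.16% of tested genes called, 3.31% lower), with a median of -0.19. At 100 µg/mL, 24 were lower and 1 higher (19.4% called), with a median of -0.22. Compared directly, 100 against 20 µg/mL gave 1 lower gene, POLE (-0.15, SE 0.05, adjusted p = 0.0386), and 1 higher gene, RRM2 (7.43% called), and a median of -0.03. The step from 100 to 500 µg/mL lowered all 41 genes (55.4% called, 27.8% lower), by a median of -0.97, and 19 of them at least 2-fold (6.36% of tested genes called and at least 2-fold lower). As a linear trend over log dose, which is set by the 20 and 500 µg/mL groups, all 41 fell (61.9% called, 31.4% lower). The median fall was 0.51 on the log2 scale per 5-fold step. At 20 µg/mL, leaving out vehicle replicate 1 gave 9 called genes, leaving out the replicate 2 library of that dose 10 and leaving out its replicate 3 library 13. The POLE call between 100 and 20 µg/mL was lost without replicate 1 or 2 at 20 µg/mL, without replicate 2 or 3 at 100 µg/mL, without a filter on low counts, without the 6 first-replicate libraries of codes starting with 6, and with only the compared groups fitted. The test of DESeq2 called 4 genes there, 3 of them lower.

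RRM2 was the 1 member called higher at 100 µg/mL, where 37 of the 41 genes were below vehicle and the others above it, CLSPN, E2F1 and GINS1, were not called. Its levels were 302, 302 and 317 CPM at 20 µg/mL, 367, 353 and 355 CPM at 100 µg/mL and 221, 219 and 209 CPM at 500 µg/mL, with 328, 329 and 314 CPM in vehicle. All libraries at 100 µg/mL were above all vehicle libraries, and all at 500 µg/mL below them. RRM2 was 0.15 above vehicle at 100 µg/mL (SE 0.04, adjusted p = 0.00387) and 0.22 above the 20 µg/mL group (SE 0.04, adjusted p = 4.26e-05). UHRF1, in contrast, stood at 103, 92.7 and 96.4 CPM at 20 µg/mL and 92.4, 93.3 and 91.6 CPM at 100 µg/mL, close to vehicle at the first dose, and had a log2 change of -1.44 between 100 and 500 µg/mL (SE 0.06, adjusted p = 1.36e-26). CLSPN was not called at either lower dose, with changes of 0.15 and 0.18, and fell by 1.76 from 100 to 500 µg/mL. MCM3 was lower at each dose, with 195, 190 and 194 CPM at 20 µg/mL and 180, 174 and 178 CPM at 100 µg/mL, and its adjusted p for the step between them was 0.0735.

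**Figure D3:**
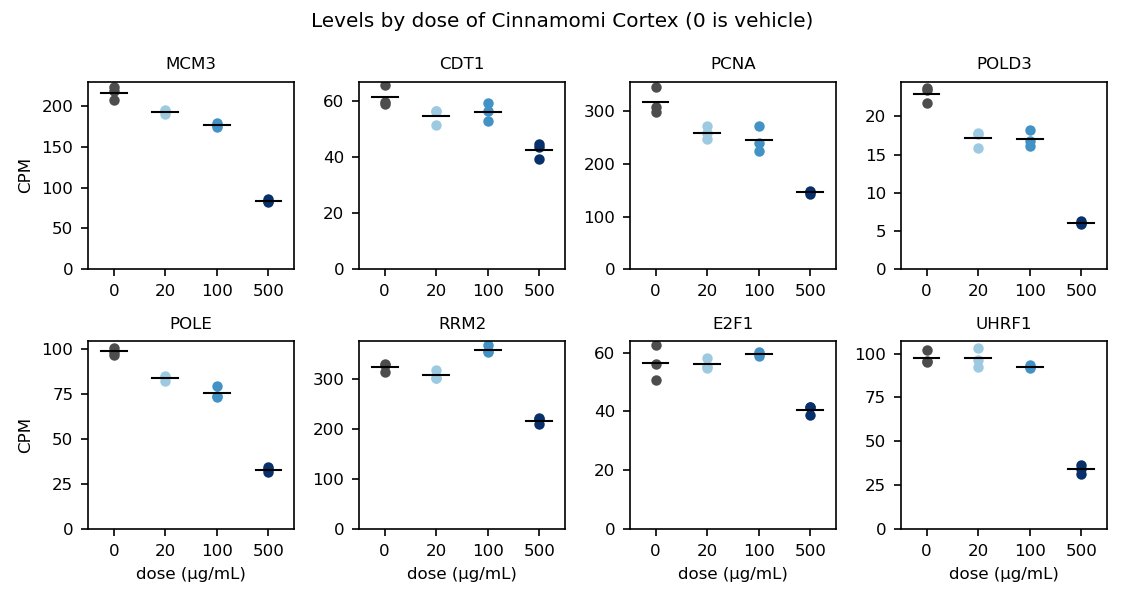
CPM of 8 members (panels, vertical axes from 0) by dose of Cinnamomi Cortex, where 0 is vehicle, with a point per library and a line at the group mean. At 500 µg/mL all 3 points lie below all vehicle points in each panel, and RRM2 at 100 µg/mL (353 to 367 CPM) lies above vehicle (314 to 329 CPM).

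Other genes of the same processes, from lists not part of the 41, mostly moved the same way at 500 µg/mL of Cinnamomi Cortex. Over all 16167 tested genes of this comparison, 5114 were called lower and 5027 higher. Of 36 other replisome genes, 30 fell, 4 rose and 2 were not called (median -0.79). CHTF18 of the alternative clamp loader changed by -2.13, ATAD5, which unloads PCNA, by -1.77, and the origin firing factor TICRR by -1.70, all lower. The 4 that rose were POLD4 (1.70), POLE4 (0.49), CHTF8 (0.38) and ORC4 (0.23). POLD4 is the smallest subunit of polymerase delta, the enzyme whose POLD3 subunit fell most, and it stood at 4.90, 7.48 and 5.55 CPM in vehicle and 17.5, 20.7 and 20.4 CPM with the extract (SE 0.12, adjusted p = 2.47e-17). POLD2, the remaining subunit, had a change of -0.12 and was not called (adjusted p = 0.0932). Of 8 other nucleotide supply genes 7 fell and RRM2B, a paralogue of RRM2, was not called (change 0.13). All 10 chromatin replication genes fell, among them CDCA7 (-1.97), HELLS (-1.66) and the histone chaperone NASP (-1.61).

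Of 22 genes that govern entry into S phase, 18 fell and 1 rose. Beside this count and those below stand 5114 genes called lower and 5027 called higher among the 16167 tested. E2F8 changed by -2.24, CCNE2 by -1.66 and CCNE1, the cyclin partner of CDK2, by -1.23. CDKN1A, which encodes the CDK inhibitor p21, stood at 145, 126 and 130.2 CPM in vehicle and 245, 228 and 226 CPM with the extract, and rose by 0.80 (SE 0.09, adjusted p = 5.93e-11). CCND3, CDK4 and RB1 were not called. All 18 mitosis genes fell, by a median of -1.32, and their summed level was 2495 to 2598 CPM in vehicle and 826 to 867 CPM with the extract. Of 9 hepatocyte markers, 5 rose (APOA1, TTR, SERPINA1, TF and HNF4A), APOB and FGB fell, and ALB and AFP were not called, with a summed level of 56640 to 58630 CPM in vehicle and 66520 to 66930 CPM with the extract.

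With the other 5 extracts the module differed from vehicle by small amounts, and these comparisons share the same 3 vehicle libraries. At 20 µg/mL the called genes were all lower. They numbered 17 of 41 for Cnidii Rhizoma (6.49% of tested genes called), 13 for Rehmanniae Radix Preparata (7.18%), 11 for Astragali Radix (3.93%), 18 for Sagunja-tang (11.4%) and 24 for Samul-tang (20.7%). These percentages count both directions, and in the same order 2.96%, 3.04%, 1.37%, 5.13% and 9.9% of tested genes were called lower. The medians over the 41 genes lay between -0.17 and -0.13. In contrast to Cinnamomi Cortex, no member changed 2-fold with any of these extracts at any dose. Leaving out vehicle replicate 1 lowered the counts at 20 µg/mL to 4 for Astragali Radix, 9 for Cnidii Rhizoma and 8 for Rehmanniae Radix Preparata. Leaving out the replicate 2 library of the treated group gave 11 for Cnidii Rhizoma and 6 for Astragali Radix, and vehicle replicate 2 left out gave 5 for Astragali Radix. Fitted with only the compared groups, the counts were 8 for Rehmanniae Radix Preparata, 7 for Astragali Radix and 1 for Samul-tang.

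At 100 µg/mL the counts, again all lower, were 5 for Cnidii Rhizoma (3.58%), 11 for Rehmanniae Radix Preparata (4.17%), 3 for Astragali Radix (2.26%), 6 for Sagunja-tang (8.85%) and 14 for Samul-tang (8.08%). In the same order 1.43%, 1.72%, 0.823%, 3.54% and 3.67% of tested genes were called lower. Without vehicle replicate 1 the counts of members were 1, 4, 1, 1 and 4. Without vehicle replicate 2 they were 2 for Cnidii Rhizoma, 7 for Rehmanniae Radix Preparata, 3 for Sagunja-tang and 8 for Samul-tang. Leaving out 1 treated library gave between 1 and 3 for Cnidii Rhizoma (any replicate), 5 and 7 for Rehmanniae Radix Preparata (replicates 1 and 2), 1 for Astragali Radix (replicate 2), 1 and 3 for Sagunja-tang (replicates 1 and 2) and 7 for Samul-tang (replicate 1 or 2).

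At 500 µg/mL between 2 and 19 members were called per extract. Rehmanniae Radix Preparata had 15 lower genes (7.45% of tested genes called, 3.58% lower). Samul-tang, a formula, had 18 lower and 1 higher (13.7% called, 6.24% lower), and the medians were -0.15 for both. Cnidii Rhizoma had 2 lower and 2 higher (11.8% called), Astragali Radix 2 lower (3.04% called, 1.48% lower) and Sagunja-tang 2 lower and 1 higher (12.3% called), with medians of -0.05 to -0.03. The members' shares, 9.76% for Cnidii Rhizoma and 7.32% for Sagunja-tang, were below those of all tested genes. Without vehicle replicate 1 the counts were 7 for Rehmanniae Radix Preparata, 11 for Samul-tang and 1 for Cnidii Rhizoma and for Astragali Radix. Without vehicle replicate 2 they were 9, 12 and 1 for Rehmanniae Radix Preparata, Samul-tang and Astragali Radix, and without vehicle replicate 3 there was 1 for Astragali Radix. Leaving out treated replicate 1 gave 8 for Rehmanniae Radix Preparata and 1 for Cnidii Rhizoma, replicate 3 gave 11 for Samul-tang, 2 for Cnidii Rhizoma and 1, higher, for Astragali Radix, and replicate 2 gave 5 for Sagunja-tang and 1 for Astragali Radix. With the 6 groups at 20 µg/mL, averaged, in place of vehicle, no member was called lower with any of the 5. Under that comparator 16 were higher for Cnidii Rhizoma (8.74% of tested genes called higher), 16 for Astragali Radix (3.85%), 17 for Sagunja-tang (9.21%), 3 for Samul-tang (3.68%) and none for Rehmanniae Radix Preparata (1.55%).

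PCNA was lower than vehicle in all 15 comparisons of these 5 extracts, by 0.18 to 0.42 on the log2 scale. With Samul-tang at 20 µg/mL it stood at 238, 229 and 242 CPM, all below the 298 to 346 CPM of vehicle (log2 change -0.42, SE 0.06, adjusted p = 1.46e-06). With Cnidii Rhizoma at 500 µg/mL it stood at 274, 269 and 300.2 CPM, which overlapped vehicle, whose lowest library had 298 CPM (log2 change -0.18, SE 0.06, adjusted p = 0.0376). POLA2 was called lower in 12 of the 15 comparisons, POLD3 and POLE in 11, and CDC6 and MCM6 in 10. All 15 reuse the same vehicle libraries, so repeated calls of a gene are not independent. The share of tested genes called as often is not given. POLE with Cnidii Rhizoma at 500 µg/mL stood at 84.2, 88.8 and 83.4 CPM against 97.1 to 101 CPM in vehicle (log2 change -0.21, SE 0.05, adjusted p = 0.00186), a group apart from vehicle. CDT1, MCM2, MCM5, GINS4, RFC2, POLD1, LIG1, UHRF1, CHAF1A, CLSPN and WDHD1 were called lower in none of the 15. With the averaged 20 µg/mL groups as comparator, the sign turned at 500 µg/mL for PCNA with Cnidii Rhizoma (0.14), Astragali Radix (0.09) and Sagunja-tang (0.02), for POLE with Astragali Radix (0.03) and for POLA2 with Sagunja-tang (0.04).

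The calls above vehicle fell on 3 genes of S-phase regulation and chromatin. CLSPN was higher at 500 µg/mL with Sagunja-tang, at 35.4, 30.0 and 33.4 CPM against 25.5 to 27.8 CPM in vehicle (log2 change 0.29, SE 0.08, adjusted p = 0.0171). With Samul-tang at that dose CLSPN stood at 32.6, 31.2 and 35.1 CPM (log2 change 0.29, SE 0.08, adjusted p = 0.0148), and the treated groups lay above vehicle in both cases. UHRF1 with Cnidii Rhizoma at 500 µg/mL stood at 111, 103 and 117 CPM against 95.1 to 102 CPM (log2 change 0.17, SE 0.05, adjusted p = 0.0183). CHAF1A in the same libraries stood at 51.1, 49.4 and 52.4 CPM against 44.4 to 46.4 CPM (log2 change 0.16, SE 0.06, adjusted p = 0.0479). CLSPN and CHAF1A had a positive sign in all 15 comparisons, and CHAF1B, the partner of CHAF1A, a negative one in all 15. Other members, such as ORC1, CDC6 and MCM3, were also negative in all 15. Because the comparisons share the same vehicle libraries, their signs are not independent. The share of tested genes with an unchanging sign is not given.

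**Figure D4:**
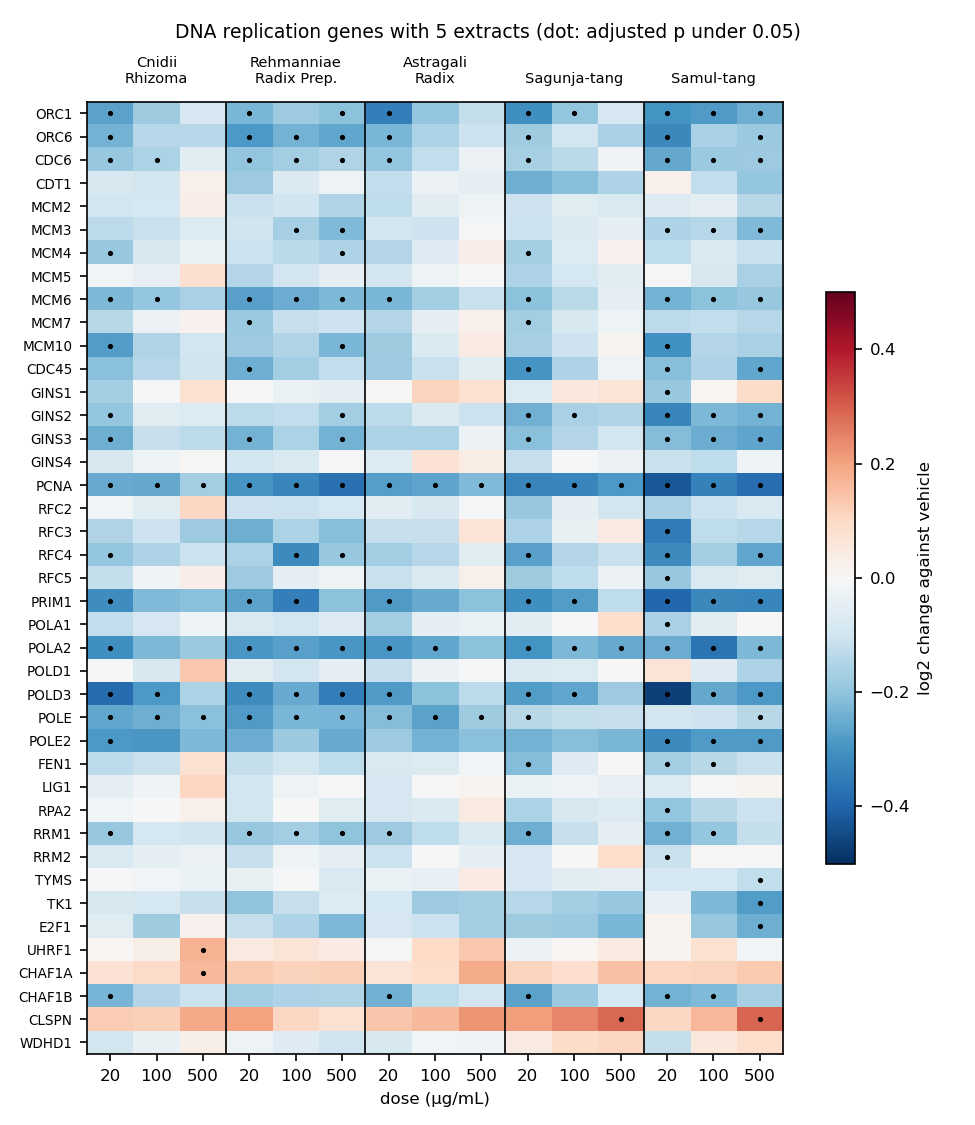
Rows are the 41 genes in order of role and columns are 5 extracts at 20, 100 and 500 µg/mL. Colour is the log2 change against vehicle on a scale from -0.5 to 0.5, and dots mark an adjusted p under 0.05. PCNA carries a dot in all 15 columns, which share the vehicle libraries, and the higher calls are UHRF1, CHAF1A and CLSPN at 500 µg/mL.

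Dose trends within an extract do not use vehicle and are set by its 20 and 500 µg/mL groups. They were positive for 38 of the 41 genes with each of Astragali Radix, Cnidii Rhizoma and Sagunja-tang, 28 with Samul-tang and 23 with Rehmanniae Radix Preparata, where 49.1% to 50.3% of all tested genes were positive. The medians per 5-fold step were 0.05 for the first 3, 0.03 for Samul-tang and 0.01 for Rehmanniae Radix Preparata. Few single genes passed the test. Sagunja-tang had 7 members higher with dose (4.99% of tested genes called): FEN1, RRM2, RRM1, MCM4, CDC45, ORC1 and CDC6. FEN1 had the lowest adjusted p, 0.00195, with 58.9, 64.2 and 64.2 CPM at 20 µg/mL, 69.2, 71.8 and 66.9 CPM at 100 µg/mL and 72.1, 73.9 and 71.0 CPM at 500 µg/mL, groups that did not overlap between the outer doses. Leaving out replicate 1 at 500 µg/mL gave 3 genes for Sagunja-tang, leaving out replicate 2 or 3 at 20 µg/mL gave 4, and no filter on low counts gave 4.

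Cnidii Rhizoma had 2 genes higher with dose (3.22% called), FEN1 (0.10 per step, SE 0.02, adjusted p = 0.00402) and GINS1 (0.12 per step, SE 0.03, adjusted p = 0.0119). There was 1 without replicate 1 at 20 µg/mL and none without replicate 3 at 500 µg/mL. Samul-tang had GINS1 and WDHD1 higher and E2F1 lower (9.88% called). GINS1 with Samul-tang stood at 53.9, 49.2 and 54.6 CPM at 20 µg/mL and at 64.0, 65.0 and 62.1 CPM at 500 µg/mL (0.14 per step, SE 0.03, adjusted p = 0.00219). Of the dose trend counts this one moved most: it was 0 without replicate 2 at 20 µg/mL, 10 without replicate 1 and 12 without replicate 3 of that dose, 5 without replicate 2 at 500 µg/mL and 1 without replicate 1 or 3. No member passed for Rehmanniae Radix Preparata (0.674% of tested genes called) or Astragali Radix (1.16%) by edgeR. At an unadjusted p under 0.05 there were 2 and 13 members, all 13 of them positive for Astragali Radix, and DESeq2 called 0 and 3. The share of tested genes under that unadjusted threshold is not given, so these counts are only described. For Astragali Radix, 1 member was called without replicate 1 at 500 µg/mL and without replicate 1 or 3 at 20 µg/mL.

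**Figure D5:**
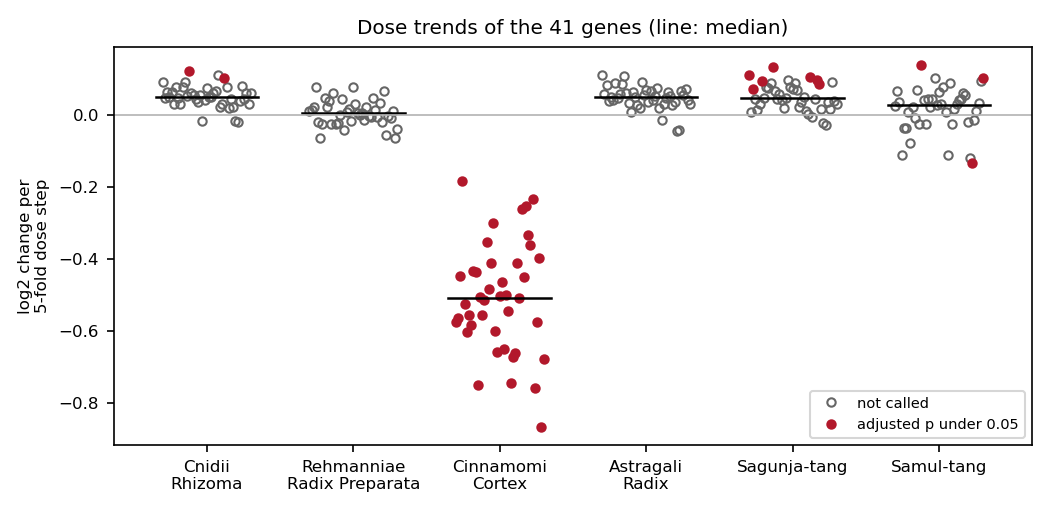
Points are the log2 change per 5-fold dose step of each of the 41 genes in 6 extracts, spread sideways in the order of the list, filled where the adjusted p was under 0.05, with a line at the median. Medians are -0.51 for Cinnamomi Cortex and between 0.01 and 0.05 for the other 5 extracts.

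Extracts that share a code group were compared at 500 µg/mL without vehicle. Cinnamomi Cortex was below Astragali Radix for all 41 genes (62.7% of tested genes called, 31.8% lower), by a median of 1.17 on the log2 scale. At least 2-fold lower were 30 genes (9.33% of tested genes called and at least 2-fold lower). UHRF1 stood at 36.6, 34.0 and 31.5 CPM with Cinnamomi Cortex and at 107 to 108 CPM with Astragali Radix (log2 difference -1.65, SE 0.06, adjusted p = 1.7e-29). Their dose trends also differed for all 41 genes (50.9% called, 25.9% lower), by a median of -0.57 per step. Cnidii Rhizoma was above Rehmanniae Radix Preparata for 1 called gene, FEN1 (0.705% called), with 72.8, 76.1 and 80.6 CPM against 66.1, 66.4 and 66.5 CPM (log2 difference 0.21, SE 0.05, adjusted p = 0.0132). The sign was positive for 39 of the 41 genes and for 49.6% of tested genes, with a median of 0.10 over the 41. Sagunja-tang was above Samul-tang for 1 called gene, MCM3 (0.885% called), with 209.9, 217 and 202 CPM against 179, 185 and 192 CPM (log2 difference 0.18, SE 0.04, adjusted p = 0.0327).

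The FEN1 call was lost without replicate 1 or 2 of Rehmanniae Radix Preparata, without replicate 3 of Cnidii Rhizoma or with only the compared groups fitted, and there were 2 calls without replicate 1 of Cnidii Rhizoma and by DESeq2. The MCM3 call was lost without replicate 1 of Sagunja-tang, without replicate 1 or 2 of Samul-tang, without a filter on low counts or with only the compared groups fitted. The dose trends of Cnidii Rhizoma and Rehmanniae Radix Preparata differed for no member (0.068% of tested genes called), with 9 at an unadjusted p under 0.05 and 0 by DESeq2. Those of Sagunja-tang and Samul-tang differed for no member either (0.142% called), with 8 at an unadjusted p under 0.05 and 0 by DESeq2. The share of tested genes at an unadjusted p under 0.05 is not given for either pair.

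For Palmul-tang, with single libraries, no test was made. The median over the 41 genes of the log2 ratio to the vehicle mean was -0.19 at 20 µg/mL, -0.18 at 100 µg/mL and -0.17 at 500 µg/mL, and 39, 37 and 37 of the 41 genes were below the vehicle mean, beside 51.6%, 53% and 51.8% of tested genes. PCNA stood at 237, 236 and 240.3 CPM at 20, 100 and 500 µg/mL, each below the lowest vehicle library (298 CPM). POLE stood at 92.4, 88.3 and 88.3 CPM, below the 97.1 to 101 CPM of vehicle, and CLSPN at 28.9, 30.6 and 31.8 CPM, above its 25.5 to 27.8 CPM. The share of tested genes with a single library outside the vehicle range is not given, so these positions are only described.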

How the data were processed

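Per the labels, RNA with an integrity number above 7 was made into directional libraries and read as 100 bp pairs. The values the authors deposited are expected counts (reads estimated for each gene) in 270 columns, a unit read from the values, 8.58% of which are not whole. Named in the submitters' processing notes are STAR 2.7.3a, RSEM 1.3.3, Trim Galore 0.6.5 and FastQC 0.11.9, and the build GRCh38. The annotation release and the strand setting are not given in the sources used here. Of these columns 60 carry a label of this series, and the remaining 210 were left unused. Symbols, positions and exon lengths came from GENCODE release 29.

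Expected counts were rounded and fitted in edgeR 4.0.16 (R 4.3.3) with 1 mean for each group in a quasi-likelihood model of 57 libraries, after filterByExpr (16167 genes) and TMM scaling (factors 0.833 to 1.05). Tests were two-sided F tests over 32 contrasts with Benjamini-Hochberg adjustment over all tested genes within each contrast, and an adjusted p under 0.05 was called. A dose trend is the change per 5-fold step. The members and lists were chosen with earlier results of these data known. Values per library are given, for each role, for the member with the highest vehicle CPM and those with the largest and smallest change with Cinnamomi Cortex at 500 µg/mL, for members called against the direction of most, and for up to 3 members by adjusted p in other contrasts. Other members are described where the text groups them.

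The alternatives were RLE size factors, no filter on low counts, DESeq2 1.42.0, a replicate block, only the compared groups, each library left out, the 6 first-replicate libraries of codes starting with 6 left out, the averaged 20 µg/mL groups as comparator, and library sizes without mitochondrial genes. The same functions were tested on simulated data with known changes in 50 genes per size. Of changes of 1.2-, 1.5-, 2- and 3-fold, 40.8%, 79.2%, 85.7% and 89.4% were recovered, and 11 of 153 calls were false. Changes of 1.2-fold were thus often not called. Palmul-tang was described without a test.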

Additional observations from a re-analysis of the deposited data

Results flagged for a closer look

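The dose trends of Cinnamomi Cortex and Astragali Radix differed for all 41 genes (41 of 41 called by edgeR's quasi-likelihood test of the difference between trends, with a median difference of -0.57 on the log2 scale per 5-fold step). In the same comparison 50.9% of the 16167 tested genes were called, and 25.9% were called with a lower trend for Cinnamomi Cortex, as the 41 were. With Cinnamomi Cortex all 41 trends were negative, and with Astragali Radix 38 were positive. The count was 41 with each library left out in turn.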

How the results depend on the processing

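With Cinnamomi Cortex at 500 µg/mL, against vehicle, 100 µg/mL or Astragali Radix, and in its dose trend and the difference of trends, all 41 genes were called under each alternative run for these comparisons, so the 41 calls did not depend on any of these settings. The counts with the mild extracts did. Of 440 counts recomputed over 32 comparisons, 336 stayed within 1.5 times the reported one and 104 did not. The cause for the latter was not tested, and where libraries were left out their number was also smaller. With the 20 µg/mL groups averaged as comparator, the counts at 500 µg/mL were 16 (Cnidii Rhizoma), 0 (Rehmanniae Radix Preparata), 16 (Astragali Radix), 17 (Sagunja-tang) and 3 (Samul-tang), all of them higher, beside 8.74%, 1.55%, 3.85%, 9.21% and 3.68% of tested genes called higher. Under this comparator the log2 change of PCNA was 0.136 (Cnidii Rhizoma), 0.092 (Astragali Radix) and 0.023 (Sagunja-tang), that of POLE 0.027 (Astragali Radix) and that of POLA2 0.035 (Sagunja-tang).

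Without a filter on low counts there were 2 calls for Cnidii Rhizoma, 1 for Astragali Radix and 5 for Sagunja-tang at 500 µg/mL, 4 and 6 for the dose trends of Sagunja-tang and Samul-tang, 1 for Cinnamomi Cortex at 100 against 20 µg/mL and 0 for Sagunja-tang against Samul-tang. Fitting only the compared groups gave 1 for Cnidii Rhizoma and 0 for Astragali Radix at 500 µg/mL, 8, 7 and 1 for Rehmanniae Radix Preparata, Astragali Radix and Samul-tang at 20 µg/mL, 1 and 0 for the trends of Cnidii Rhizoma and Samul-tang, 1 for Cinnamomi Cortex at 100 against 20 µg/mL, and 0 for both pairs of mild extracts. DESeq2 gave 5, 3 and 5 for the trends of Cnidii Rhizoma, Astragali Radix and Samul-tang, 4 for Cinnamomi Cortex at 100 against 20 µg/mL, and 2 for each of these pairs. Leaving out the 6 first-replicate libraries of codes starting with 6 gave 8 and 5 for Cnidii Rhizoma and Astragali Radix at 100 µg/mL, 1 for the trend of Astragali Radix, 1 for Cinnamomi Cortex at 100 against 20 µg/mL and 2 for Sagunja-tang against Samul-tang. Library sizes without mitochondrial genes gave 1 for the trend of Astragali Radix.

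A replicate block gave 1 for the trend of Astragali Radix and 5 for that of Samul-tang, and left all other counts within 1.5 times. Deviations of same-numbered libraries had median correlations of 0 to 0.03, and those of libraries with other numbers -0.017 to 0.005. Any pairing by replicate number was thus weak over the tested genes, and these values cannot exclude it.

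With each library left out in turn, the lowest and highest counts were, in the order Cnidii Rhizoma, Rehmanniae Radix Preparata, Cinnamomi Cortex, Astragali Radix, Sagunja-tang and Samul-tang, as follows. At 500 µg/mL they were 1 to 4, 7 to 11, 41 to 41, 1 to 3, 2 to 5 and 11 to 18. At 100 µg/mL they were 1 to 4, 4 to 10, 20 to 27, 1 to 4, 1 to 5 and 4 to 14. At 20 µg/mL they were 9 to 18, 8 to 14, 9 to 22, 4 to 11, 12 to 18 and 16 to 23. For the dose trends they were 0 to 3, 0 to 0, 41 to 41, 0 to 1, 3 to 6 and 0 to 12. The counts were 1 to 2 for Cinnamomi Cortex at 100 against 20 µg/mL, 0 to 2 for Cnidii Rhizoma against Rehmanniae Radix Preparata and 0 to 1 for Sagunja-tang against Samul-tang.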
